A study of Mus musculus with 6 samples.

Results

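Cytosolic ribosomal protein genes encode the protein part of the ribosomes that translate messenger RNA in the cytoplasm. They were taken here as the genes of the deposited series table whose symbols begin with Rpl or Rps followed by a number and at most 1 letter, together with Rplp0, Rplp1, Rplp2 and Rpsa. The rule found 83 genes of 51810, 51 named for the large subunit and 32 for the small subunit, on 19 chromosomes. The annotation used here classed 80 of them as protein coding and 3, Rpl6l, Rpl32l and Rps4l, as processed pseudogenes. The rule uses no measured value.

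The data were poly(A) RNA sequencing libraries of mouse mTEChi, the mature medullary epithelial cells of the thymus, which show tissue antigens to developing T cells. The 3 cKO libraries came from mice labelled P53-cKO, with a conditional deletion of Trp53, and the 3 WT libraries from mice labelled P53-WT, which the sample titles call NoCre. Mice of both groups were 4 to 5 weeks old, and 75000 cells per sample were sorted after enrichment for the epithelial protein EpCAM. Neither the Cre driver nor the animal behind each library is given in the labels, and the spread that p-values rest on may thus be partly technical.

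Total counts per library lay between 45457892 and 50128045. Trp53 had 386, 361 and 369 counts in cKO libraries 1 to 3, against 5351, 4837 and 5314 in WT libraries 1 to 3, and Cdkn1a, the p53 target that encodes the cell cycle inhibitor p21, had a log2 fold change of -0.90 ± 0.08 (SE) and an adjusted p of 0.000445 by edgeR. The summed level of 10 mature medullary markers, among them Aire, Fezf2, Cd80 and H2-Aa, lay between 17010 and 19428 CPM in cKO libraries and between 17479 and 19427 CPM in WT libraries, so the labelled cell type was seen in both groups. CPM are counts scaled to the library total after TMM normalization. H2-Aa and H2-Ab1, with means of 8615 and 6083 CPM in cKO libraries, made up most of the medullary sum. Aire had 822, 1160 and 1159 CPM in cKO libraries 1 to 3, against 1417, 1301 and 1201 CPM in WT libraries 1 to 3. Fezf2 was also lower in every cKO library than in every WT library, while Tnfrsf11a was higher. The other medullary markers overlapped between the groups, and none of the 10 passed the test. Marker lists of cortical epithelium, thymocytes, B cells, myeloid cells, and fibroblasts with endothelium overlapped between the groups in summed level. The 5 red cell markers did not: they summed to 49.1 to 71.7 CPM in cKO libraries and 73.1 to 80.99 CPM in WT libraries. None of the 5 passed the test or stood at 0, and their part in the results below was not tested.

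A ribosome has a small subunit, which reads the message, and a large subunit, which joins the amino acids. Each holds ribosomal RNA and 1 copy of most of its proteins, and cells make the proteins in matched amounts. Many of these mRNAs start with a C followed by a run of C or T bases, the TOP motif, through which the kinase mTOR and the RNA-binding protein LARP1 set their translation and stability. The pathway also meets p53: when ribosome assembly is disturbed, free Rpl5 and Rpl11 bind Mdm2, the ligase that marks p53 for degradation, and p53 builds up.

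Start regions are shown for the genes with the smallest p below and for Rps27 and its near copy Rps27l, because such a run at the start is a feature that the choice of genes did not use. A RefSeq table of GRCm38.p6 starts held 61 of the 83 genes. Of these, 31 (50.8%) had an unbroken run of 8 or more bases that were each C or T within 20 bases either side of an annotated start, read on the gene's strand, against 18.8% of the 27025 genes of the table. A run counted here need not begin at the start or lie within the mRNA, so this is not a share of TOP mRNAs. The median longest run was 8 bases in the ribosomal protein genes and 5 in all genes of the table. Each sequence below is the 41-base window centred on the start, 5′ to 3′, with the longest run in capitals where it reached 8 bases.
Rps15: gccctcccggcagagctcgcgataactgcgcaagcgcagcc
Rplp2: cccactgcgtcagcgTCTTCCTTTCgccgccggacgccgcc
Rps19: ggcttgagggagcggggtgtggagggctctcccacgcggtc
Rpsa: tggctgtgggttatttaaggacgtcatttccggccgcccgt
Rpl14: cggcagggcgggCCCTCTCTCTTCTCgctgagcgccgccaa
Rplp0: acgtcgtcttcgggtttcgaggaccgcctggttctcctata
Rps2: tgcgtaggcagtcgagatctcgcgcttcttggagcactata
Rps27: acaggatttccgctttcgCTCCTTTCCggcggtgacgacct
Rps27l: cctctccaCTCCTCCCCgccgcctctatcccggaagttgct
These windows lie at chr10:80292411-80292451 (plus strand) for Rps15, chr7:141447631-141447671 (plus strand) for Rplp2, chr7:24884893-24884933 (plus strand) for Rps19 and chr9:120127746-120127786 (plus strand) for Rpsa. Those of the other genes lie at chr9:120571497-120571537 (plus strand) for Rpl14, chr5:115559447-115559487 (plus strand) for Rplp0, chr17:24720043-24720083 (plus strand) for Rps2, chr3:90213628-90213668 (minus strand) for Rps27 and chr9:66946066-66946106 (plus strand) for Rps27l. Of the 8 genes with the smallest p, the table held 7, all but Rpl8, and 2 of these, Rplp2 and Rpl14, had a run of 8 or more. The longest runs of the other 5 were 5 to 7 bases, and no capitals say only that a run of 8 is not in this window. Rps19 has 3 annotated starts in the table, and the one with its longest run is shown. Rps27l has another annotated start, not shown, whose longest run is 4 bases. Rps27 and Rps27l, which encode closely similar proteins, both have a run of 9 bases. Relative to the annotated start, the run begins at -2 in Rps27 and spans the start. In Rps27l it begins at -12 and ends before the start. Genes with a run had a median log2 fold change of -0.18 (n = 31), and genes in the table without one had a median of -0.20 (n = 28).

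The summed level of the ribosomal protein genes was lower in every cKO library than in every WT library. They took 0.920%, 0.850% and 0.932% of the counts in cKO libraries 1 to 3, against 0.994%, 1.076% and 1.076% in WT libraries 1 to 3. The means were 0.901% ± 0.044 in cKO and 1.049% ± 0.048 in WT (SD, n = 3 each), so the cKO share was 14.1% lower. The Wilson 95% intervals of these shares were at most 0.00294 percentage points wide on either side, for counting error only and with each read taken as independent, which the 2 mates of a pair are not. The groups did not overlap. Among single genes tested, 7.28% had no overlap in the same direction, but no such share was computed for sums of genes. No p is given for the sum, because the genes were chosen with earlier results known, and 3 libraries against 3 cannot give an exact permutation p below 0.1. In sorted bulk cells, fewer cells of a type and less RNA per cell cannot be told apart.

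Per length, the picture was the same in direction. The authors' deposited TPM, counts per kilobase of exon scaled to a fixed sum, gave the 83 genes 1.380%, 1.301% and 1.376% in cKO libraries, against 1.493%, 1.552% and 1.567% in WT libraries. The large subunit took 0.534% ± 0.033 of the counts in cKO and 0.628% ± 0.029 in WT. The small subunit took 0.366% ± 0.012 in cKO and 0.420% ± 0.019 in WT, so both subunits were lower.

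**Figure D1:**
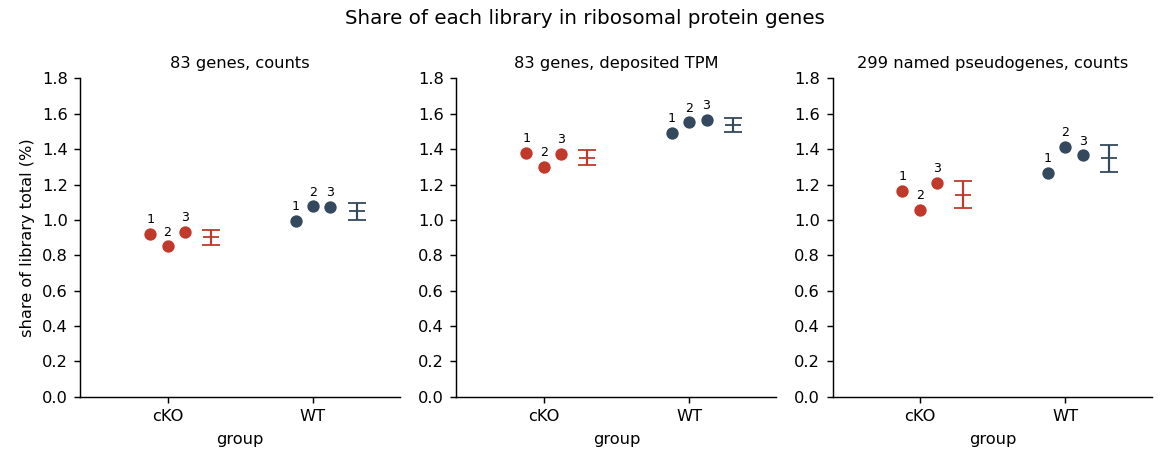
Share of each library, in percent of counts or of deposited TPM, taken by the 83 ribosomal protein genes and by the 299 named ribosomal protein pseudogenes; points are libraries with their replicate number, bars are mean ± SD of 3. The cKO libraries lie between 0.850% and 0.932% of counts, all below the WT libraries at 0.994% to 1.076%.

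The balance between the subunits differed little. The ratio of large to small subunit counts was 1.482, 1.409 and 1.483 in cKO libraries, against 1.496, 1.505 and 1.488 in WT libraries. The groups did not overlap, but the difference of -0.038 shrank to -0.014 without cKO library 2 and to -0.0089 without the 5 genes of highest level. By deposited TPM the ratio was 1.952, 1.837 and 1.991 in cKO and 1.905, 1.998 and 1.958 in WT, and the groups overlapped.

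Pseudogenes named after ribosomal protein genes, 299 in all, took more counts than the genes themselves, at 1.162%, 1.059% and 1.208% in cKO libraries and 1.267%, 1.412% and 1.365% in WT libraries. Most pseudogenes of this kind are copies of the mRNA set back into the genome, and reads that align to several places were left out of the deposited counts. A read that aligned to both a gene and its copy is therefore in neither count.

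The lower sum was spread over most genes, and no single gene passed the test. Of the 83 genes, 81 passed the filter on low counts, and Rpl10l and Rpl39l did not. None of the 81 had an adjusted p under 0.05 (edgeR quasi-likelihood test, adjusted over 28543 genes), where 0.0596% of all genes did (0.035% lower and 0.0245% higher in cKO), so at this threshold the genes did not stand apart, and DESeq2 also called 0 of the 81. A log2 fold change below 0, meaning a lower level in cKO, was fitted for 76 of the 81, or 93.8%, against 51.0% of all genes. At an unadjusted p under 0.05, 33 of the 81 were lower, or 40.7%, against 4.23% of all genes, and 0 were higher, against 4.28%. These 33 were 22 of 49 large subunit genes and 11 of 32 small subunit genes. All 3 cKO libraries lay below all 3 WT libraries for 42 of the 81, against 7.28% of all genes, and above them for none, against 7.14%. These counts are not independent of each other, since the genes move together from library to library. The shares over all genes were not matched for level.

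The count of 33 rests on several libraries. It was 13 without cKO library 2, where 3% of all genes tested were lower at an unadjusted p under 0.05. It was 14 without WT library 2, where 3.05% of all genes were, and 14 without WT library 3, where 2.47% were. Without cKO library 1 it was 33, against 4.04% of all genes, without cKO library 3 it was 39, against 6.03%, and without WT library 1 it was 46, against 4.79%. Lower at an unadjusted p under 0.05 with all libraries and in each of these 6 fits were 7 genes, 8.64% of the 81, against 0.988% of all genes tested. They were Rps15, Rplp2, Rps19, Rpsa, Rpl14, Rpl8 and Rplp0, the 7 with the smallest p in the fit of all libraries. Each fit without 1 library shares its remaining libraries with that fit, so these are not independent checks.

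The median log2 fold change was -0.20 over the 81 genes, 12.8% lower in cKO, and -0.0053 over all genes tested. It was -0.20 in the large subunit and -0.19 in the small subunit, and the middle 50% of the genes lay between -0.24 and -0.15. Without 1 library at a time the median ranged from -0.25 to -0.15. Across all genes, shorter genes had lower fold changes: the medians were -0.062, -0.034, 0.0039 and 0.034 in 4 equal groups of rising exon length, divided at 1308, 2768 and 5015 bases. The ribosomal protein genes were mostly short, with 22 in the first, 42 in the second, 15 in the third and 2 in the fourth. Their medians within these groups were -0.19, -0.21, -0.18 and -0.15, each below that of all genes of the same length group. Exon length here is summed over all transcripts of a gene, with a median of 1734 bases over the 83 genes. The median of 1 reference transcript per gene was 878 bases. The groups thus do not match genes by mRNA length, and the part of length was not tested.

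**Figure D2:**
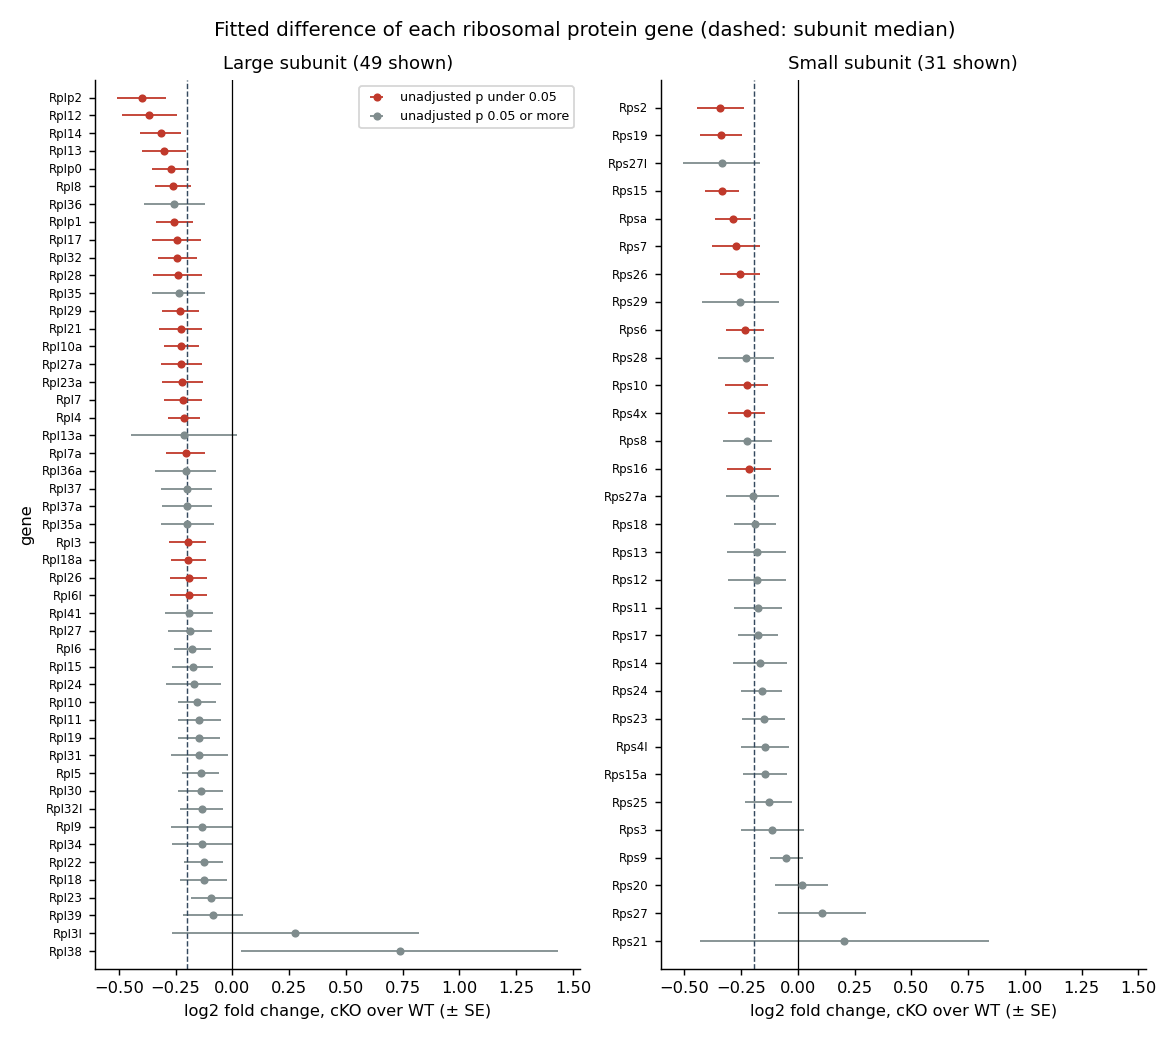
Fitted log2 fold change, cKO over WT, with its standard error for 49 large and 31 small subunit genes that passed the filter, with 1 further gene not drawn; red points have an unadjusted p under 0.05 and dashed lines are medians over all tested genes of a subunit. Of the 80 points, 75 lie left of 0, and the 2 with the highest values, Rpl38 and Rpl3l, have wide errors.

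The genes shared a library pattern. Each gene's log2 CPM was set against its own mean over the 6 libraries, and the median of these deviations over the 81 genes was -0.074, -0.203 and -0.027 in cKO libraries 1 to 3, against 0.023, 0.158 and 0.122 in WT libraries 1 to 3. Library cKO 2 held the lowest value of 63 of the 81 genes. The highest value was in WT 2 for 45 genes and in WT 3 for 27. Library cKO 3 and library WT 1 were the nearest of the opposite groups. The median SD within a group was 0.112 on the log2 scale, against 0.215 for all genes tested, and 3 of the ribosomal protein genes exceeded 0.4. These medians were not matched for level. They do not show whether these genes vary less than other genes of like level.

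**Figure D3:**
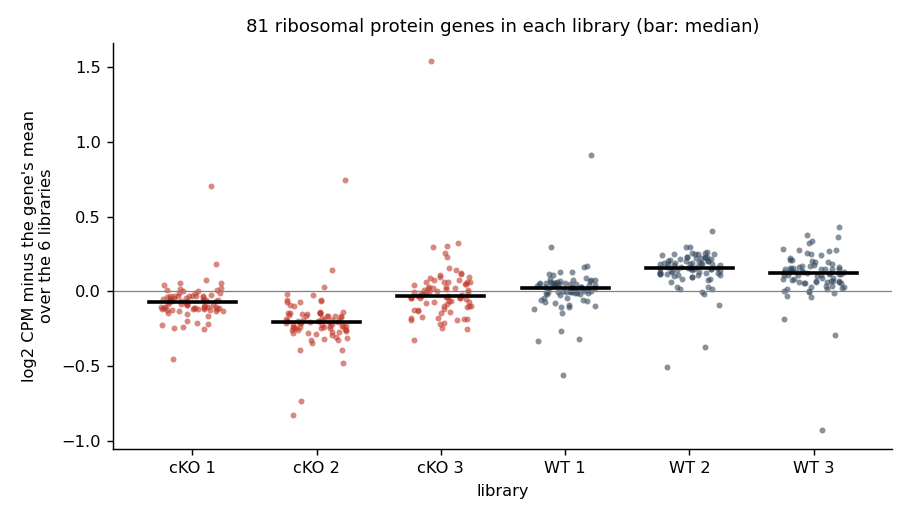
Deviation of log2 CPM from each gene's mean over the 6 libraries, for the 81 ribosomal protein genes that passed the filter; each point is 1 gene in 1 library and bars are medians. The lowest median is -0.203, in library cKO 2, the highest is 0.158, in library WT 2, and all 3 cKO medians lie below all 3 WT medians.

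Among small subunit genes, Rps15, which encodes a protein of the subunit's head, had the smallest p of all 81 genes tested. It stood at 183, 179 and 186 CPM in cKO libraries 1 to 3, against 215, 244 and 233 CPM in WT libraries 1 to 3. All cKO values lay below all WT values, with little spread in cKO. The log2 fold change was -0.33 ± 0.08 (SE), with an adjusted p of 0.211 by edgeR. Rps19, the gene most often mutated in the inherited red cell disorder Diamond-Blackfan anaemia, stood at 59.8, 52.7 and 61.9 CPM in cKO libraries 1 to 3, against 67.8, 77.6 and 75.1 CPM in WT libraries 1 to 3. Its groups did not overlap either, with a log2 fold change of -0.34 ± 0.09 and an adjusted p of 0.314 by edgeR.

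Rpsa, whose protein also serves as a laminin receptor at the cell surface, had 286, 252 and 256 CPM in cKO libraries 1 to 3, against 302, 339.9 and 325 CPM in WT libraries 1 to 3. Again no cKO library reached the WT range. The log2 fold change was -0.29 ± 0.08, and the adjusted p was 0.332 by edgeR. Rps2, a protein near the entry of the mRNA channel, had 66.1, 56.6 and 58.1 CPM in cKO libraries 1 to 3, against 70.5, 71.7 and 86.9 CPM in WT libraries 1 to 3. Its log2 fold change was -0.34 ± 0.10 (adjusted p = 0.381, edgeR), and the WT values spread more widely than the cKO values, with WT 3 highest.

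Among large subunit genes, the 3 of the stalk were all among the 8 with the lowest log2 fold changes of the 49 tested. By p, Rplp1 ranked 10 over all 81 genes, and the stalk was not a group set in advance. The stalk is a flexible arm built from Rplp0 and pairs of Rplp1 and Rplp2, which recruits the translation factors. Rplp2 had the lowest log2 fold change of the 81 genes, -0.40 ± 0.11 (adjusted p = 0.3, edgeR). Its values were 23.2, 22.4 and 25.4 CPM in cKO libraries 1 to 3, against 28.4, 32.3 and 33.04 CPM in WT libraries 1 to 3. Rplp0 had 601, 534 and 536 CPM in cKO libraries 1 to 3, against 616, 697 and 706 CPM in WT libraries 1 to 3, a log2 fold change of -0.27 ± 0.08 (adjusted p = 0.381, edgeR). Rplp1 had 346, 320.4 and 367 CPM in cKO libraries 1 to 3, against 376, 426 and 431 CPM in WT libraries 1 to 3, a log2 fold change of -0.25 ± 0.08 (adjusted p = 0.419, edgeR). None of the 3 stalk genes had a cKO library within the WT range.

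The other large subunit genes among the 8 with the smallest p were Rpl14 and Rpl8. Rpl14 had 84.4, 73.4 and 86.3 CPM in cKO libraries 1 to 3, against 93.4, 105 and 105 CPM in WT libraries 1 to 3. Its log2 fold change was -0.32 ± 0.09 (adjusted p = 0.341, edgeR). Rpl8, a protein close to the catalytic centre, had 560.1, 487 and 497 CPM in cKO libraries 1 to 3, against 594, 621 and 637 CPM in WT libraries 1 to 3. Its log2 fold change was -0.26 ± 0.08 (adjusted p = 0.37, edgeR), and in both genes all cKO libraries lay below all WT libraries. Over these 8 genes the adjusted p ran from 0.211 to 0.381, so none passed.

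**Figure D4:**
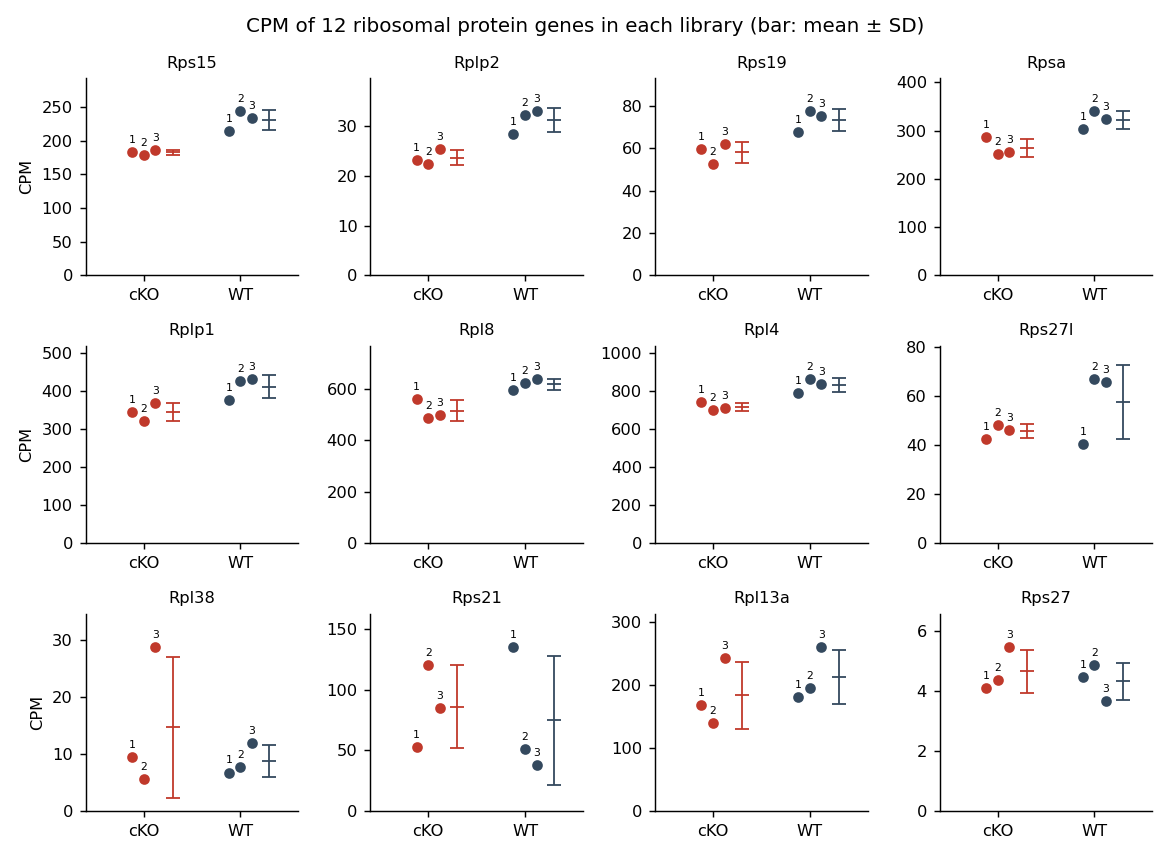
CPM of 12 ribosomal protein genes in each library, each panel with its own axis from 0; points are libraries with their replicate number and bars are mean ± SD of 3. In the first 7 panels, Rps15 to Rpl4, all cKO points lie below all WT points, while in Rps27l, Rpl38, Rps21, Rpl13a and Rps27 the groups overlap.

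Levels between genes, compared per length by deposited TPM, differed widely. The median gene had 79.4 TPM in cKO and 88.0 TPM in WT. Over all 6 libraries, 35 genes averaged 100 TPM or more, 43 averaged 10 to 100 TPM, and 5 were under 10 TPM. Leaving out Rpl3l, Rpl10l and Rpl39l, the highest of the other 80 was 222 times the lowest. The order was nearly the same in both groups, with a Spearman rho of 0.996 between the mean TPM in cKO and in WT over 83 genes, which share their exon lengths and their counting.

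Rplp1 stood highest, at 1597, 1493 and 1653 TPM in cKO libraries 1 to 3, against 1754, 1875 and 1937 TPM in WT libraries 1 to 3. It alone held 11.9% of the summed TPM of the 83 genes, and the 5 highest held 36.0%. Rpl8 averaged 868 ± 71.2 TPM in cKO libraries and 1024 ± 24.5 TPM in WT libraries (SD, n = 3 each here and below). Rpl4, a large subunit protein that lines the exit tunnel, averaged 818 ± 31.1 TPM in cKO libraries and 932 ± 14.7 TPM in WT libraries, and its range overlapped that of Rpl8 in cKO but not in WT. Rplp0 averaged 769.5 ± 57.2 TPM in cKO libraries and 913 ± 46.03 TPM in WT libraries, and its range overlapped that of Rpl4 in both groups. Rpl41, which encodes a very short peptide of the large subunit, averaged 771 ± 89.4 TPM in cKO libraries and 866 ± 68.9 TPM in WT libraries, a range that overlaps Rplp0 in both groups.

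The 5 lowest were Rps27, Rpl34, Rpl3l, Rpl39l and Rpl10l. Rps27 averaged 10.2 ± 1.40 TPM in cKO libraries and 9.33 ± 1.31 TPM in WT libraries, and Rpl34 averaged 7.45 ± 0.273 TPM in cKO libraries and 8.03 ± 0.397 TPM in WT libraries. Both encode standard proteins of the ribosome. The other 3 are copies known for use in few tissues.

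Rpl3l takes the place of Rpl3 in heart and skeletal muscle. It had 25, 9 and 20 counts in cKO libraries, against 12, 18 and 14 in WT libraries, and the groups overlapped. Rpl3 had 172, 162 and 149 CPM in cKO libraries 1 to 3, against 182, 192 and 179 CPM in WT libraries 1 to 3, with no overlap and a log2 fold change of -0.20 ± 0.08 (adjusted p = 0.536, edgeR). Rpl39l, a copy of Rpl39 used in male germ cells, had 7 counts in each cKO library, against 2, 6 and 2 in WT libraries. The cKO values all lay above the WT values, but these counts are close to the floor of 3, and Rpl39l did not pass the filter and was not tested. Rpl39 had 50.7, 53.5 and 71.3 CPM in cKO libraries 1 to 3, against 55.2, 69.9 and 61.3 CPM in WT libraries 1 to 3, and the groups overlapped. Rpl10l, a testis copy of Rpl10, had 0, 0 and 2 counts in cKO libraries and 0 in each WT library, and the floor of 3 counts stands at 0.0598 to 0.0660 CPM in these libraries. Rpl10 had 69.6, 62.8 and 71.4 CPM in cKO libraries 1 to 3, against 75.4, 78.2 and 73.5 CPM in WT libraries 1 to 3, with no overlap and a log2 fold change of -0.16 ± 0.08 (adjusted p = 0.664, edgeR).

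The 3 genes annotated as processed pseudogenes were not low. Rpl32l averaged 464 ± 39.5 TPM in cKO libraries and 501 ± 26.7 TPM in WT libraries, above Rpl32 at 276 ± 14.2 TPM in cKO libraries and 321 ± 14.6 TPM in WT libraries. Rpl6l averaged 369 ± 24.3 TPM in cKO libraries and 415 ± 14.1 TPM in WT libraries, above Rpl6 at 103 ± 7.68 TPM in cKO libraries and 114 ± 2.80 TPM in WT libraries. Of the 50-base stretches of the Rpl6l transcript, 61.8% also occur in Rpl6, and 19.4% of those of Rpl32l occur in Rpl32, so reads of these stretches could be missing from both counts and these levels are uncertain. Rps4l, at 189 ± 16.2 TPM in cKO libraries and 206 ± 26.5 TPM in WT libraries, shared no such stretch with Rps4x. Rps4x, the X-linked small subunit gene, averaged 337 ± 25.1 TPM in cKO libraries and 388 ± 1.82 TPM in WT libraries. Its CPM did not overlap, with a log2 fold change of -0.23 ± 0.08 (adjusted p = 0.464, edgeR). Rpl6l and Rpl32l, with Rpl6 and Rpl32, were chosen after their values were seen.

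The deposited levels carry 2 properties of the counting. Per gene, 1.35% to 100% of the 50-base stretches of the principal reference transcript occurred in no other annotated gene's transcripts, with a median of 50.7%. Rps27, among the lowest genes, had 1.35%, Rpl5 had 6.16%, and Rpl3l and Rpl39l had 100%. A stretch shared with a gene that overlaps at the same place, such as Dipk1a for Rpl5, counts as not unique. Reads there can still align once. The transcript used can also be long, at 5179 bases for Rps15a, so the share of unique stretches does not measure the reads left out. Across the 83 genes this share had a Spearman rho of 0.096 with mean TPM and, across the 81 tested, of 0.10 with the log2 fold change. The median log2 fold change was -0.20 both in the 41 tested genes with 50% or more unique stretches and in the 40 below. The exon length that TPM divides by, summed over all transcripts of a gene, had a median of 1734 bases, against 878 bases for the transcript used here. For Rps19 the exon length was 4685 bases and the transcript 774 bases.

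Several genes share exon bases with another gene, and counting took no account of strand. This held for 37 of the 83 genes, and for 11 over more than 20% of their exon bases. Rpl35 shared 66.2% with Wdr38, Rpl23a shared 59.7% with Tlcd1, and Rpl24 shared 47.0% with Gm28037. Reads there were counted for both genes and cannot be told apart.

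Some genes had a wide spread between libraries or a log2 fold change near or above 0. Rpl38, Rps21, Rpl13a and Rps20 were chosen after their values were seen. Rpl38, which is known for a role in translating patterning genes of the mouse embryo, had 9.52, 5.59 and 28.7 CPM in cKO libraries 1 to 3, against 6.72, 7.64 and 11.97 CPM in WT libraries 1 to 3. Library cKO 3 alone stood far above the rest, and without it the log2 fold change of 0.74 ± 0.70 became -0.22. Rps21 had 52.7, 121 and 84.7 CPM in cKO libraries 1 to 3, against 135, 50.7 and 37.9 CPM in WT libraries 1 to 3. Here WT 1 and cKO 2 were high, and the log2 fold change of 0.20 ± 0.64 became -0.12 without cKO library 2 and -0.12 without WT library 3. Rpl13a had 168, 139 and 243 CPM in cKO libraries 1 to 3, against 181, 196 and 261 CPM in WT libraries 1 to 3, with the third library highest in both groups. Its log2 fold change of -0.21 ± 0.23 was below 0 like that of most of these genes. Rpl13a shares 29.4% of its exon bases with Gm45713, which had 7437, 6057 and 11598 counts in cKO libraries and 7670, 8447 and 11686 counts in WT libraries. Rps20 had 181, 127 and 176 CPM in cKO libraries 1 to 3, against 159, 161 and 158 CPM in WT libraries 1 to 3. Its log2 fold change was 0.02 ± 0.12, which becomes negative under scaling by library totals.

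Rps27l is the ribosomal protein gene best known as a p53 target, and its protein is a near copy of Rps27. It had 42.7, 48.2 and 46.3 CPM in cKO libraries 1 to 3, against 40.4, 67.00 and 65.6 CPM in WT libraries 1 to 3. Library WT 1 lay below all 3 cKO libraries and the other WT libraries lay above them, so the groups overlapped. The log2 fold change was -0.34 ± 0.17, with an adjusted p of 0.644 by edgeR. Rps27 had 4.10, 4.37 and 5.46 CPM in cKO libraries 1 to 3, against 4.44, 4.87 and 3.64 CPM in WT libraries 1 to 3, with a log2 fold change of 0.11 ± 0.19 (adjusted p = 0.928, edgeR) and overlapping groups. Its share of stretches found in no other gene was the lowest of the 83, as given above.

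Rpl5, Rpl11, Rpl23 and Rpl26 connect the ribosome with p53. The first 3 encode proteins that can bind Mdm2, and Rpl26 protein binds Trp53 mRNA and raises its translation. Rpl5 had 106, 95.8 and 106 CPM in cKO libraries 1 to 3, against 109.7, 119 and 110.0 CPM in WT libraries 1 to 3. Rpl11 had 35.3, 37.4 and 38.9 CPM in cKO libraries 1 to 3, against 39.6, 44.4 and 39.6 CPM in WT libraries 1 to 3. In both genes all cKO libraries lay below all WT libraries, by log2 fold changes of -0.14 ± 0.08 and -0.15 ± 0.09 with adjusted p-values of 0.687 and 0.718 by edgeR. Rpl26 had 106, 96.7 and 107 CPM in cKO libraries 1 to 3, against 111, 123 and 121 CPM in WT libraries 1 to 3, without overlap, and a log2 fold change of -0.19 ± 0.08 (adjusted p = 0.558, edgeR). Rpl23 had a log2 fold change of -0.09 ± 0.09 (adjusted p = 0.843, edgeR), and its groups overlapped.

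The list of the 5S particle and p53 held these 4 with Rrs1, Rpf2, Mdm2, Mdm4, Cdkn2a and Trp53. Trp53, at 8.16, 7.85 and 7.38 CPM in cKO libraries 1 to 3, against 116, 102 and 109 CPM in WT libraries 1 to 3, was the 1 gene of the 10 that passed, with a log2 fold change of -3.81 ± 0.10 (adjusted p = 5.76e-10, edgeR). Mdm4, a partner of Mdm2 in restraining p53, stood at 192, 196 and 184 CPM in cKO libraries 1 to 3, against 272, 213 and 221 CPM in WT libraries 1 to 3. All its cKO values lay below its WT values, with a log2 fold change of -0.30 ± 0.09 (adjusted p = 0.396, edgeR). In 9 of the 10 the fold change was below 0, against 51.0% of all genes tested. These include the 4 ribosomal protein genes counted above and Trp53, the gene deleted in cKO, so the count is no separate result. At an unadjusted p under 0.05, 3 (30.0%) were lower, against 4.23% of all genes tested, and 1 (10.0%) was higher, against 4.28%. The lower genes include Trp53 and Rpl26, a ribosomal protein gene counted above, so this share is no separate result either.

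Ribosomal proteins whose names fall outside the pattern had a median log2 fold change of -0.17, below 0 in 5 of 6 genes, and none passed. Of the 6, 2 (33.3%) were lower at an unadjusted p under 0.05, against 4.23% of all genes tested, and 0 were higher, against 4.28%. Rack1, a scaffold protein on the small subunit, had 643, 619 and 695 CPM in cKO libraries 1 to 3, against 761, 830.3 and 799.7 CPM in WT libraries 1 to 3. Its groups did not overlap, with a log2 fold change of -0.29 ± 0.08 (adjusted p = 0.295, edgeR). Fau, which encodes a small subunit protein fused to a ubiquitin-like one, had 43.4, 40.96 and 43.5 CPM in cKO libraries 1 to 3, against 47.3, 52.3 and 50.8 CPM in WT libraries 1 to 3, a log2 fold change of -0.23 ± 0.09 (adjusted p = 0.494, edgeR).

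Other TOP mRNAs, mostly of translation factors, had a median of -0.15 and were below 0 in 13 of 16 genes. At an unadjusted p under 0.05, 5 of the 16 (31.2%) were lower, against 4.23% of all genes tested, and 0 were higher, against 4.28%, and none passed after adjustment. Eef2, the factor that moves the ribosome along the message, had 2140.2, 2092 and 1829 CPM in cKO libraries 1 to 3, against 2250.2, 2349.5 and 2333 CPM in WT libraries 1 to 3. Its groups did not overlap, with a log2 fold change of -0.19 ± 0.08 (adjusted p = 0.526, edgeR). Eef1b2, an exchange factor for the protein that delivers tRNAs, had a log2 fold change of -0.20 ± 0.08 (adjusted p = 0.53, edgeR). Host genes of small nucleolar RNAs, many of which also carry TOP starts, had a median of -0.20, below 0 in 7 of 8. Of the 8, 1 (12.5%) was lower at an unadjusted p under 0.05, and 0 were higher. Snhg12 had a log2 fold change of -0.31 ± 0.11 (adjusted p = 0.479, edgeR), and Snhg5 had -0.20 ± 0.13 (adjusted p = 0.731, edgeR).

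The machinery that builds ribosomes lay nearer to 0. Of 53 biogenesis genes, 36 were below 0 with a median of -0.044, and at an unadjusted p under 0.05 there were 4 lower (7.55%, against 4.23% of all genes tested) and 1 higher (1.89%, against 4.28%). Nop56, a core protein of the particles that methylate ribosomal RNA, had 38.7, 39.98 and 36.8 CPM in cKO libraries 1 to 3, against 48.4, 49.2 and 45.2 CPM in WT libraries 1 to 3. All its cKO libraries lay below all WT libraries, with a log2 fold change of -0.31 ± 0.09 (adjusted p = 0.346, edgeR). Fbl, the methylating enzyme of the same particles, had a log2 fold change of -0.32 ± 0.12 (adjusted p = 0.51, edgeR). The 14 genes of RNA polymerase I and its factors had a median of -0.036, with 10 below 0. None had an unadjusted p under 0.05, where 4.23% of all genes tested were lower and 4.28% higher. In a list of 14 this is near those shares. The 2 with the smallest p were Taf1a, at -0.28 ± 0.14 (adjusted p = 0.64, edgeR), and Taf1b, at -0.24 ± 0.16 (adjusted p = 0.732, edgeR), on the log2 fold change scale.

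The 10 chaperones and importers of ribosomal proteins had a median of -0.058, with 5 below 0 and 5 above. Of the 10, 1 (10.0%) was lower at an unadjusted p under 0.05, against 4.23% of all genes tested, and 1 (10.0%) was higher, against 4.28%. Pdcd2, a chaperone of Rps2 protein, had 11.4, 7.94 and 11.4 CPM in cKO libraries 1 to 3, against 7.30, 6.75 and 7.92 CPM in WT libraries 1 to 3. Its cKO libraries all lay above its WT libraries, with a log2 fold change of 0.48 ± 0.17 (adjusted p = 0.451, edgeR). Ipo5, an importer, had a log2 fold change of -0.23 ± 0.09 (adjusted p = 0.526, edgeR). The 18 genes of mTOR signalling, the LARP proteins and the MYC family had a median of 0.014, with 8 below 0. Of the 18, 1 (5.56%) was lower and 1 (5.56%) was higher at an unadjusted p under 0.05, near the shares of all genes. Mycn had 3.30, 3.15 and 3.12 CPM in cKO libraries 1 to 3, against 4.33, 4.78 and 4.89 CPM in WT libraries 1 to 3, without overlap, and a log2 fold change of -0.55 ± 0.18 (adjusted p = 0.412, edgeR). Larp4b, an RNA-binding protein, had a log2 fold change of 0.17 ± 0.07 (adjusted p = 0.558, edgeR).

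Genes of the mitochondrial ribosome, which translates only mitochondrial mRNAs, had a median of -0.080. Of these genes, 62 of 78 were below 0, against 51.0% of all genes tested. At an unadjusted p under 0.05, 3 (3.85%) were lower, near the 4.23% of all genes tested, and 0 were higher, against 4.28%. Mrpl53 had a log2 fold change of -0.36 ± 0.13 (adjusted p = 0.461, edgeR), and Mrpl28 had -0.31 ± 0.12 (adjusted p = 0.488, edgeR). Of the 299 named ribosomal protein pseudogenes, 168 passed the filter, 164 of these were below 0 with a median of -0.22, and 66 (39.3%) were lower at an unadjusted p under 0.05, against 4.23% of all genes tested. Rpsa-ps1 had a log2 fold change of -0.33 ± 0.09 (adjusted p = 0.301, edgeR), and Rps26-ps1 had -0.31 ± 0.09 (adjusted p = 0.307, edgeR). These copies share sequence with the genes, so they are no separate measurement. Differences between lists were not tested.

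**Figure D5:**
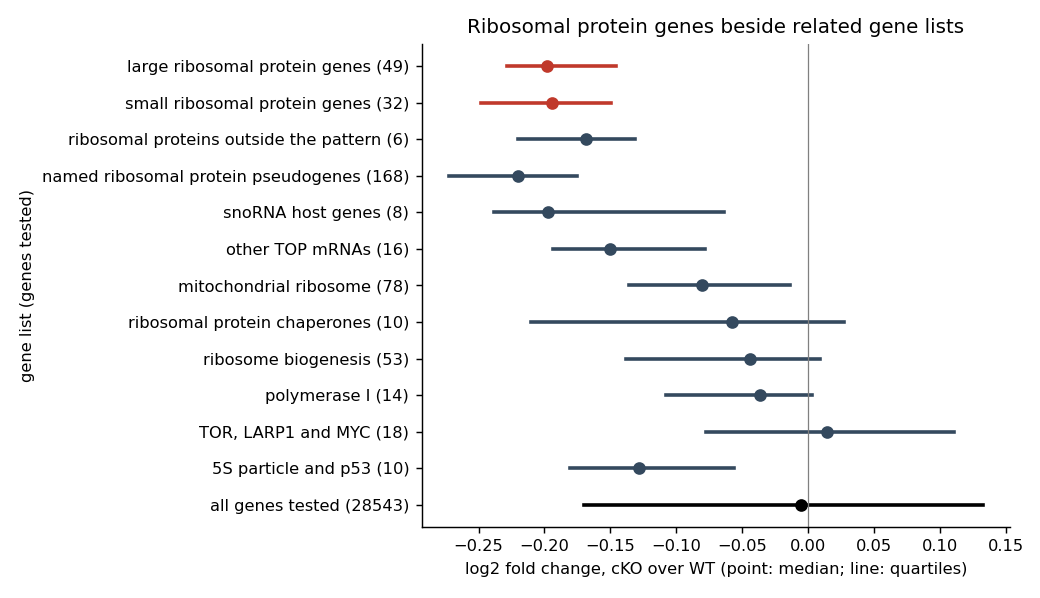
Median log2 fold change, cKO over WT, with quartiles, for the ribosomal protein genes of each subunit, 10 related gene lists and all 28543 genes tested; the number tested is in brackets. The subunit medians of -0.20 and -0.19 lie near those of the pseudogenes and the snoRNA host genes, while biogenesis, polymerase I and the mTOR list lie within 0.05 of 0.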

How the data were processed

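The deposited files give raw counts for 55385 genes, and the deposited series table repeats them for 51810, with TPM made by the authors. Reads were aligned with TopHat2 2.1.1 to mm10, per the submitters' processing notes, which also list SAMtools 1.9 and Subread 2.0.1. Per the file headers, featureCounts 2.0.0 counted reads over exons of Ensembl release 99 without strand. Per the file headers, a read was counted for every gene it overlapped, mates were counted singly and reads with several alignments were left out. Genes were tested on the counts with edgeR 4.0.16 in R 4.3.3 (TMM scaling, filterByExpr, robust quasi-likelihood F test, Benjamini-Hochberg adjustment over 28543 genes, threshold 0.05). Standard errors were derived from the fold change and its F statistic. CPM are TMM scaled. Alternatives used DESeq2 1.42.0, limma 3.58.1 and other settings. The test was checked on simulated data with changes larger than the median difference of these genes, so the check does not cover differences of that size. Stretches of 50 bases of 1 principal transcript per gene (APPRIS tag, then coding, then longest) were compared with GENCODE M21 transcripts, and starts came from RefSeq.

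The genes and lists were chosen with earlier results of these data known. Named genes were those past the threshold, the 8 with the smallest p, the 5 highest and 5 lowest by TPM, Rps27l, tissue-specific copies with their parents, the Mdm2 and Trp53 binders, and in each list the called genes and the 2 with the smallest p. Ribosomal protein sequences are not shown here, and 1 gene, included in all counts, is not reported by name. Floors and intervals cover counting error only.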

Additional observations from a re-analysis of the deposited data

How the results depend on the processing

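No ribosomal protein gene passed an adjusted p of 0.05 in any of the 18 alternative fits, although the calls over all genes moved between 1 with limma on log2 TPM and 203 with the replicate block, against 17. The smallest adjusted p over these fits was 0.0515, for Rps15 with the replicate block. The block set libraries of the same number as pairs. Same-numbered libraries correlated at 0.113, 0.0544 and 0.0755 in their deviations from the group means, and each correlated best with its own number, but they share only a number. With the block, 38 of the 81 genes were lower at an unadjusted p under 0.05 and the median log2 fold change was -0.20. For share of counts, share of TPM and subunit ratio the mean paired difference equals the unpaired one by arithmetic, at -0.148, -0.185 and -0.038, so pairing is no check on them. With 3 pairs the smallest exact permutation p is 0.25, against 0.1 unpaired. Under other scalings, filters and tools the count of 33 ranged from 27 to 37, and the median from -0.22 to -0.17, on the log2(TPM + 1) scale at its upper end. Leaving out 1 library gave counts from 13 to 46 and medians from -0.25 to -0.15. The share difference without 1 library ranged from -0.175 to -0.122 percentage points of counts and from -0.207 to -0.160 of TPM, and the ratio difference from -0.050 to -0.014. Without the 5 highest genes these were -0.099, -0.107 and -0.0089. Alternatives chosen after seeing the data gave -0.144 without the 3 annotated pseudogenes and -0.094 in the genes with 50% or more unique stretches, with medians of -0.20 in both.

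In 75 of the 81 genes the fold change was below 0 in every fit. The other 6 were Rpl38, Rpl39, Rpl3l, Rps20, Rps21 and Rps27. Without cKO library 1, Rpl3l had -0.046, Rps20 -0.072 and Rpl39 0.0085, and without cKO library 3, Rpl38 had -0.22, Rps27 -0.026 and Rps20 -0.048. Rps21 had -0.12 without cKO library 2, -0.0096 without WT library 2 and -0.12 without WT library 3. Rpl39 had 0.0063 without WT library 2, Rps27 had -0.0029 without WT library 3, and Rps20 had -0.0018 under scaling by library totals. Among these fits without 1 library, the highest values were 0.58 for Rpl3l, 0.20 for Rps27, 1.12 for Rpl38, 0.95 for Rps21 and 0.16 for Rps20. The cause was not tested. Depth limits mainly Rpl3l, Rpl39l and Rpl10l, which had at most 25 counts in a library.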
